A study of Mus musculus with 5 samples.

Results

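Hmx2, Hmx3, Uncx, Otx2 and Skor1 are 5 mouse genes for transcriptional regulators of the developing nervous system, and they lie at 4 loci because Hmx2 and Hmx3 are neighbours. The loci were taken as fixed intervals of the mouse build mm9, chr7:138680000-138705000 for Hmx2 and Hmx3, chr5:140010000-140035000 for Uncx, chr14:49265000-49300000 for Otx2 and chr9:62982000-63003000 for Skor1. The genes were chosen by their measured gain of CpG methylation in Fbxl10 T/T over WT, so the values of Fbxl10 T/T against WT at the loci are given as a description and no test is made on them. In WT the loci held 580 of the 549046 CpGs read outside the MspI site CCGG, with 192 at Hmx2/Hmx3, 175 at Uncx, 68 at Otx2 and 145 at Skor1. The numbers were 524 of 519976 CpGs for Fbxl10 T/T, 286 of 256445 for Ring1B -/-, 273 of 264914 for Eed -/- and 281 of 249756 for Ezh2 -/-.

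Mouse embryonic stem (ES) cells of 5 genotypes, with 1 library each, were profiled by RRBS, a bisulfite sequencing of CpG-rich DNA. MspI cuts DNA at CCGG, short CpG-rich fragments are sequenced, and bisulfite turns unmethylated cytosines into bases read as T, so the level of a CpG is the percentage of its reads that still show C. WT and Fbxl10 T/T cells were C57BL/6J, grown on fibroblast feeders (removed by plating before use) in serum with leukemia inhibitory factor (LIF), and harvested at passage 17. For Ring1B -/-, Eed -/- and Ezh2 -/- cells the labels give serum and LIF under standard conditions, with no strain and no passage, so genotype and culture cannot be told apart in their comparisons with WT. The labels do not describe the T allele, nor do they name separate cultures or clones. Every interval and p-value below therefore covers the counting of reads in single libraries and no spread between cultures.

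Polycomb proteins keep developmental genes silent in ES cells, chiefly at CpG islands, which are CpG-rich stretches around start sites that normally stay unmethylated. EED and EZH2 belong to Polycomb repressive complex 2, which methylates histone H3 at lysine 27, and RING1B adds ubiquitin to histone H2A as part of Polycomb repressive complex 1. FBXL10, also called KDM2B, binds unmethylated CpGs through a CXXC zinc finger and brings a form of the RING1B complex to CpG islands. Among the genes described here, HMX2 and HMX3 are homeodomain factors of the inner ear and hypothalamus, and UNCX is a homeodomain factor of somites and neurons. OTX2 is a homeodomain factor needed for forebrain and midbrain, and ES cells also express it. SKOR1 is a corepressor of dorsal spinal cord neurons.

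Start sites were located by matching RefSeq start-site sequences (build GRCm38.p6, 250 bases before to 50 after the start) letter by letter to the mm9 bases that the tables spell out around each cytosine. One start each was placed for Hmx3, Hmx2, Uncx and Otx2 and 3 for Skor1, all without a mismatch. The Otx2 start is 1 of several known for that gene, and its other start sequences were not placed. Further start sequences of Hmx2 could not be placed either, so the Hmx2 values below are for its placed start only. The 250 bases before these starts are shown because they are the promoter DNA on which the methylation values below fall. For Bub3, a mitotic checkpoint gene that starts in the same interval as Hmx2, they are shown as the neighbour that stayed unmethylated. Each sequence is from RefSeq, runs 5′ to 3′ on the strand of its gene, and has its CpGs in capitals. The spans are chr7:138686227-138686476 (+ strand) for Hmx3, chr7:138697557-138697806 (+ strand) for Hmx2, chr5:140019602-140019851 (+ strand) for Uncx, chr14:49284785-49285034 (- strand) for Otx2, chr9:62996769-62997018 (- strand) for Skor1 and chr7:138703758-138704007 (+ strand) for Bub3.
Hmx3: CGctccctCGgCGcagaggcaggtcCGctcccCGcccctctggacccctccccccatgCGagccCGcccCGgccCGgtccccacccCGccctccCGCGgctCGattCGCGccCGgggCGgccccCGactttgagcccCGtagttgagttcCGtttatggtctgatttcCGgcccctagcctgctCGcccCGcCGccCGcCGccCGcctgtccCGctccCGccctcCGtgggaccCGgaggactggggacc
Hmx2: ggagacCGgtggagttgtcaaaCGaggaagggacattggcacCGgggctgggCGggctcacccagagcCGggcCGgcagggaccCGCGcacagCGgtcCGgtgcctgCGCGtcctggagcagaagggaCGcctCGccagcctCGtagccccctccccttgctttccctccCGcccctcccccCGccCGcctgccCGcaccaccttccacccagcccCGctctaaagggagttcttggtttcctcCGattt
Uncx: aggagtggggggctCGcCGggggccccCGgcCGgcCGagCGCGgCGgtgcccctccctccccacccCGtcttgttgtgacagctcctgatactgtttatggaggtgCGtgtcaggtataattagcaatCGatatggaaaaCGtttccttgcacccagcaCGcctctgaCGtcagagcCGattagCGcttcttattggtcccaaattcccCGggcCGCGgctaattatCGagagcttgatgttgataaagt
Otx2: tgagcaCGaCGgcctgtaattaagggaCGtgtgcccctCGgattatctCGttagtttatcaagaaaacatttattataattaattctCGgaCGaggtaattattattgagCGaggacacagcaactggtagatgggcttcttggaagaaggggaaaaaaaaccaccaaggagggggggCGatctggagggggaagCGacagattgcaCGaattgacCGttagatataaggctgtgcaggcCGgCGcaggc
Skor1: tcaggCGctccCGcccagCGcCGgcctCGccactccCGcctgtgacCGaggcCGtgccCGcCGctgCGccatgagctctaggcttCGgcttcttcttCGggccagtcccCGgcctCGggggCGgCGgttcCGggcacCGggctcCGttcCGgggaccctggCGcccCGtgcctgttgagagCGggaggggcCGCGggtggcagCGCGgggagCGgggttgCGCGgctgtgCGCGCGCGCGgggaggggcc
Bub3: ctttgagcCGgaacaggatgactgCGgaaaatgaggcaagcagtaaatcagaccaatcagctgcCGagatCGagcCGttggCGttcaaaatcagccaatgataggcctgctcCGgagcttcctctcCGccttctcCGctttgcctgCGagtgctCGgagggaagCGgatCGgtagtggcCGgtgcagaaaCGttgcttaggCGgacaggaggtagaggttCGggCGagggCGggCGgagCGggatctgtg

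These stretches hold 31 CpGs at Hmx3, 21 at Hmx2, 20 at Uncx, 14 at Otx2, 36 at Skor1 and 21 at Bub3, against a median of 6 over all 32619 RefSeq promoter sequences. Even the Otx2 stretch has more CpGs than 70.4% of all promoters, and the Skor1 stretch has more than 97.4%. G and C make up 48.4% of the Otx2 stretch and 78.8% of the Skor1 stretch. In WT the CpGs read in the stretches before Hmx3, Hmx2, Uncx and Skor1 stood at 0.974%, 1.36%, 3.06% and 5.05%. In Fbxl10 T/T the same stretches stood at 65.1% (95% Wilson interval 60.2 to 69.6) for Hmx3, 9.68% (6.21 to 14.8) for Hmx2, 84.9% (77.6 to 90.1) for Uncx and 66.0% (60.4 to 71.1) for Skor1. RRBS reads only part of each stretch, and these WT values rest on 22 CpGs before Hmx3, 5 before Hmx2, 8 before Uncx and 16 before Skor1, while before Otx2 too few were read for a value. The stretches before Hmx2 and Bub3, with 21 CpGs each, and before Uncx, with 20, thus ended at very different levels, since Bub3 stood at 0.850%. In Fbxl10 T/T the values rest on 22 CpGs read before Hmx3, 5 before Hmx2, 4 before Uncx, 16 before Skor1 and 10 before Bub3. Any link between the number of CpGs in a stretch and its methylation was not tested.

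Over whole loci, methylation was low in WT and high in Fbxl10 T/T. The Hmx2/Hmx3 locus stood at 2.22% of reads for WT (1.95 to 2.53) and at 41.2% for Fbxl10 T/T (39.9 to 42.6). Uncx went from 11.1% (10.5 to 11.8) to 59.2% (57.7 to 60.7), Otx2 from 9.69% (8.50 to 11) to 74.4% (71.7 to 76.9), and Skor1 from 6.97% (6.43 to 7.55) to 68.3% (66.7 to 69.8). Otx2 was the highest of the 4 loci in Fbxl10 T/T and Hmx2/Hmx3 the lowest, and the 4 intervals do not overlap. The Hmx2/Hmx3 level includes 1020 reads at the start of the neighbour Bub3, which stood at 0.392% in Fbxl10 T/T. It also includes 1089 reads around the Hmx2 start, at 7.07%. Over only the windows called higher by the rule below, Hmx2/Hmx3 had 66.8% and Uncx 60.6%, so the lowest rank depends on the CpGs taken. The same level over the whole table was 13.6% for WT and 21.0% for Fbxl10 T/T. Of CpGs with at least 10 reads in Fbxl10 T/T, those above 50% methylation numbered 79 of 134 at Hmx2/Hmx3, 78 of 116 at Uncx, 35 of 38 at Otx2 and 96 of 104 at Skor1. In WT they numbered 18 of 446 at the 4 loci, 14 of them at Uncx. Among all CpGs outside CCGG with at least 10 reads, 95022 of 370743 (25.6%) were above 50% in Fbxl10 T/T. The WT library had 68367 of 403914 (16.9%) above that level. The levels of single CpGs in Fbxl10 T/T were most uneven at Hmx2/Hmx3, with an SD of 33.4 points over CpGs, against 16.1 at Uncx, 13.7 at Skor1 and 11.8 at Otx2. The CpGs behind the Hmx2/Hmx3 value include 23 at the start of Bub3.

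The loci were then read in consecutive 1-kb windows, keeping those with at least 5 CpGs and 30 reads in both libraries of a comparison. Of 106 windows in the intervals, 60 had a CpG and 35 were measured in WT and Fbxl10 T/T. A rise of 20 points or more, together with a Fisher's exact test on the summed reads that stayed below 0.05 after Benjamini-Hochberg adjustment over the genome's windows, made a window called higher. By that rule 29 of the 35 windows were higher in Fbxl10 T/T, where the whole genome gave 25.6% of 20312 windows, and nothing is read from this contrast because it chose the genes. All 5 windows at Otx2 and all 7 at Skor1 were called, 10 of 12 at Uncx and 7 of 11 at Hmx2/Hmx3. One window, at Uncx, was called lower, where 2.68% of all windows were. The median over the 35 windows was 4.44% in WT and 64.6% in Fbxl10 T/T.

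**Figure D1:**
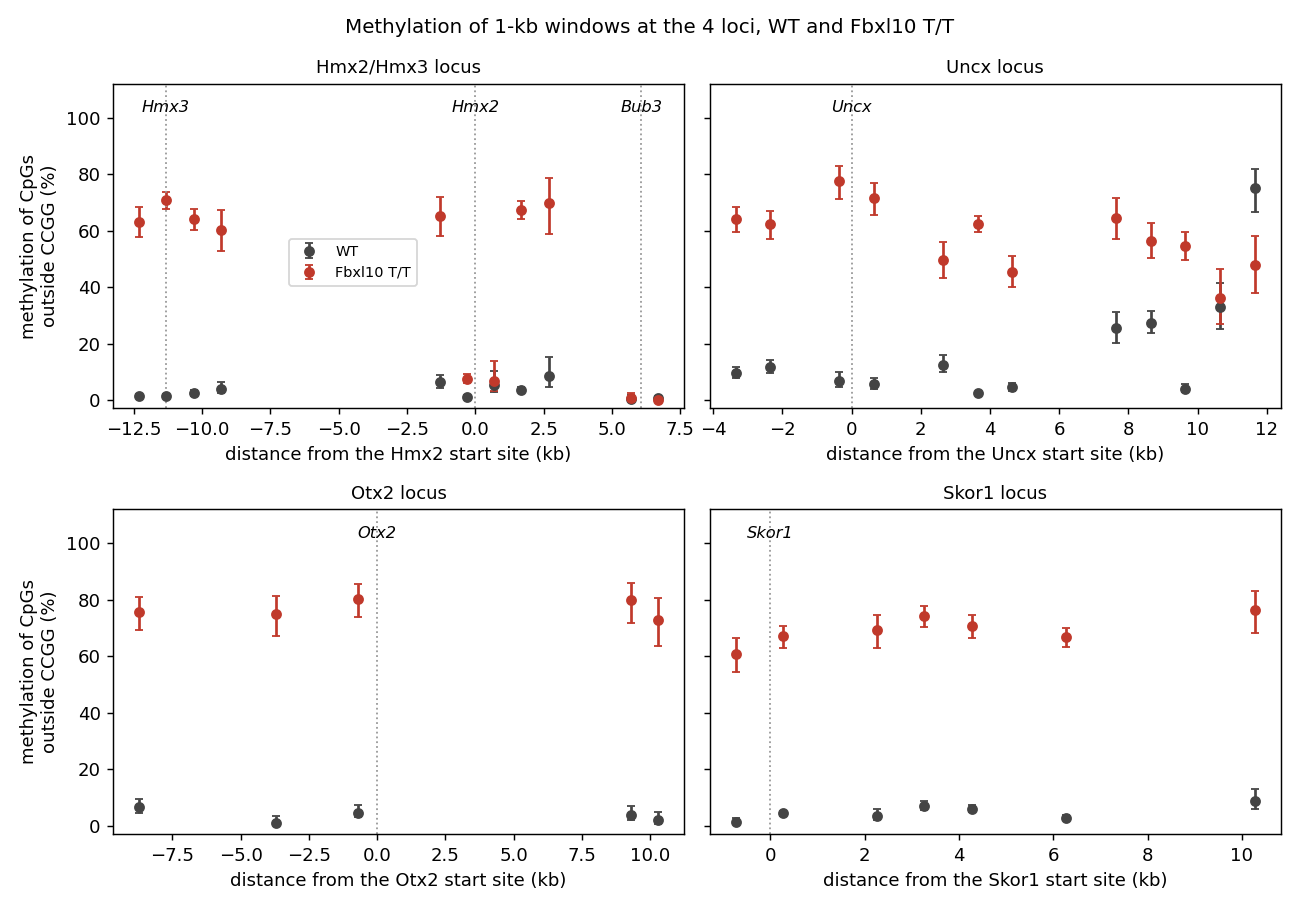
Methylation of CpGs outside CCGG (y axis, percent of reads) in each measured 1-kb window against the distance of its centre from the start site in kb, along the gene's strand (x axis), for WT (grey) and Fbxl10 T/T (red). Bars are 95% Wilson intervals and dotted lines are start sites. At Otx2 and Skor1 every measured window is between 60.6% and 80.4% in Fbxl10 T/T, at Hmx2/Hmx3 the windows at the Hmx2 and Bub3 starts stay under 10%, and at Uncx 4 of the last 5 windows are between 25.3% and 75% in WT.

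At Hmx3 the rise covered the start site and everything measured around it. The window that begins at 138686001, which holds the start at 138686477, had 1.43% in WT (2032 reads over 47 CpGs) and 70.7% in Fbxl10 T/T (891 reads over 45 CpGs, interval 67.6 to 73.6). The window before it went from 1.32% to 63.2%. Of the next 2 windows, the first went from 2.35% to 64.0% and the second from 3.94% to 60.2%. All 4 windows at Hmx3 were therefore under 4% in WT and above 60% in Fbxl10 T/T.

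The placed start of Hmx2 lies 11.33 kb further on, and it did not follow Hmx3. The window that begins at 138697001 and holds the Hmx2 start at 138697807 had 1.14% in WT (1576 reads, interval 0.724 to 1.80) and 7.59% in Fbxl10 T/T (1015 reads, interval 6.11 to 9.38), a difference of 6.44 points (95% Newcombe interval 4.83 to 8.29). The window after it had 5.30% in WT and 6.59% in Fbxl10 T/T, with only 91 reads in the latter. On either side the levels were high, since the window that begins at 138696001 went from 6.24% to 65.2% and the one at 138699001 from 3.47% to 67.3%. A further window, at 138700001, went from 8.49% to 69.6%. The windows around Hmx2 therefore rose by 59.0 points or more, while the window of its placed start gained a few points and stayed under the 20-point rule. As a plain mean over CpGs, in which thinly read CpGs count as much as deep ones, the start window had 1.08% in WT and 18.4% in Fbxl10 T/T, and the window after it 26.9% and 4.93%.

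Single CpGs with at least 10 reads in both libraries show where the change begins and ends. Between positions 138697447 and 138698242, around the Hmx2 start, 28 CpGs in a row stood between 0% and 16.7% in Fbxl10 T/T, with 7.07% over all their reads (5.69 to 8.75) and 1.28% in WT. The nearest such CpGs outside that run were at 138696097 and 138699075. The 62 CpGs on the Hmx3 side stood at 67.4% (65.3 to 69.4), and the 21 CpGs on the far side at 68.6% (65.5 to 71.6). No CpG between these runs had enough reads, so the borders lie somewhere in the gaps. The runs were drawn at 25% methylation after the values had been seen.

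**Figure D2:**
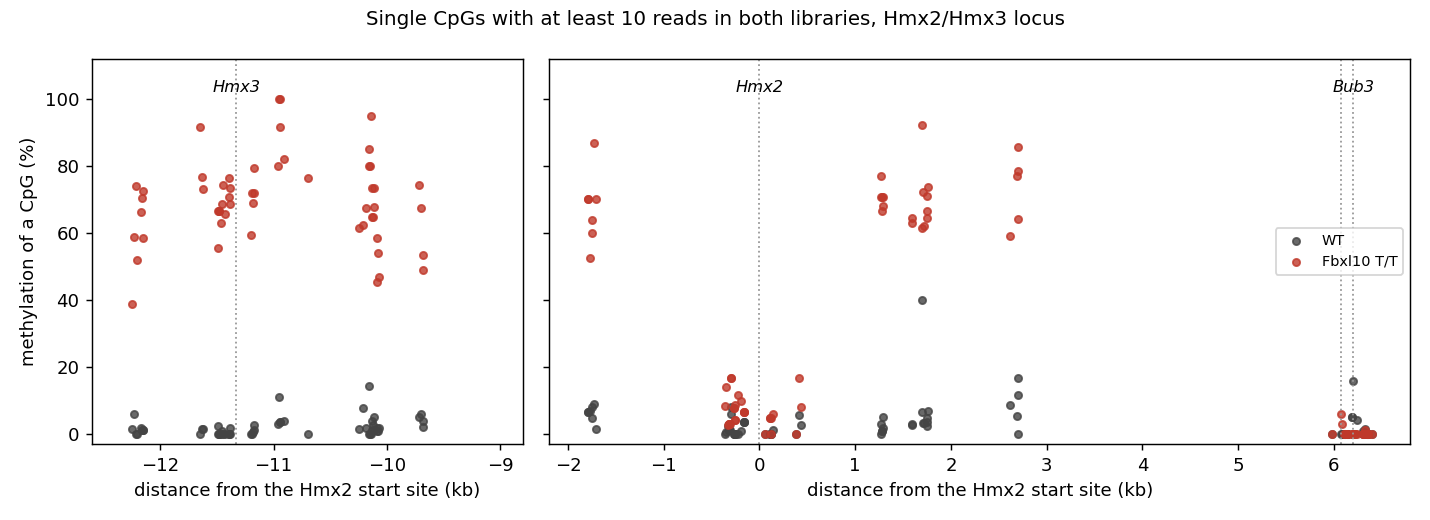
Methylation of single CpGs (y axis, percent) with at least 10 reads in both WT (grey) and Fbxl10 T/T (red) against distance from the Hmx2 start site in kb (x axis), with dotted lines at the Hmx3, Hmx2 and Bub3 start sites. The 28 CpGs at the Hmx2 start lie at 16.7% or below in Fbxl10 T/T, between runs of CpGs at 67.4% and 68.6% over their reads.

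The last 2 measured windows of the interval belong to the start of Bub3, 6.20 kb beyond the start of Hmx2. They stood at 0.464% and 0.680% in WT and at 0.850% and 0.150% in Fbxl10 T/T, and 23 CpGs in a row there had 0.392% over their reads in Fbxl10 T/T. Bub3 thus did not differ beyond its counting intervals, and Hmx2 lay between Bub3 and the risen windows in level. Of the 29 windows at the 4 loci that were under 10% in WT, 25 were called higher, and the 4 that were not are these 2 and the 2 at the Hmx2 start. Over the genome, 21.4% of windows under 10% in WT were called higher.

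At Uncx the rise over summed reads was largest in the window of the start site. The window that begins at 140019001 and holds the start at 140019852 went from 6.74% in WT (341 reads) to 77.5% in Fbxl10 T/T (191 reads, interval 71.1 to 82.8). As a plain mean over its CpGs this window went from 21.0% to 49.5%, so the size of its rise rests on the deeply read CpGs. The next measured window, at 140020001, went from 5.51% to 71.5%. Upstream, the windows at 140016001 and 140017001 went from 9.67% to 63.9% and from 11.6% to 62.2%. Downstream, the windows at 140022001, 140023001 and 140024001 reached 49.6%, 62.3% and 45.3% from 12.6%, 2.31% and 4.44%. The window at 140023001 is the deepest of the locus, with 36 CpGs and 2643 reads in WT.

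Further from the Uncx start 4 of 5 windows were already partly methylated in WT, and the direction of the difference was mixed. The windows at 140027001 and 140028001 had 25.3% and 27.4% in WT and 64.6% and 56.4% in Fbxl10 T/T. The window at 140029001 went from 3.95% to 54.6%. The next, at 140030001, had 32.8% and 36.0%, a difference of 3.14 points whose interval runs from -9.40 to 15.9. The last, at 140031001, went the other way, from 75% in WT (120 reads over 9 CpGs) to 47.8% in Fbxl10 T/T (92 reads over 7 CpGs), a difference of -27.2 points (-39.2 to -14.0). Levels at the locus in Fbxl10 T/T therefore ran from 36.0% to 77.5%, while those in WT ran from 2.31% to 75%. Of 116 CpGs with at least 10 reads in both libraries, 91 were higher by at least 25 points in Fbxl10 T/T and 6 lower. The share of such CpGs over the genome was not counted.

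At Otx2 few windows could be measured, and all of them rose to a similar level. The window that begins at 49285001, just upstream of the placed start at 49284784, had 4.66% in WT (365 reads) and 80.4% in Fbxl10 T/T (179 reads over 11 CpGs, interval 74.0 to 85.6). In Fbxl10 T/T its CpGs at 49285162 and 49285164 had 84 reads each and every other CpG at most 3. Its level there thus rests almost wholly on these neighbouring CpGs. The window at 49288001 went from 0.966% to 74.8% and the one at 49293001 from 6.64% to 75.7%. On the downstream side, the windows at 49274001 and 49275001 went from 1.97% to 73.0% and from 3.81% to 79.8%. All 5 intervals in Fbxl10 T/T overlap, so these windows cannot be ranked at this depth. They span from 9.22 kb before to 10.78 kb after the placed start, and 38 of the 55 CpGs read at the locus in Fbxl10 T/T had at least 10 reads.

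At Skor1 every measured window rose, from the first start site to 10.77 kb downstream of it. The window that begins at 62996001, which holds the first start at 62996768, had 4.39% in WT (1984 reads over 37 CpGs) and 67.0% in Fbxl10 T/T (582 reads over 37 CpGs, interval 63.1 to 70.7). The window upstream of it went from 1.43% to 60.6%. Both other placed starts, 62994818 and 62994787, lie in the window at 62994001, which went from 3.62% to 69.2%. The windows at 62993001, 62992001 and 62990001 reached 74.4%, 70.6% and 66.7% from 6.99%, 5.93% and 2.82%. The furthest, at 62986001, went from 8.92% to 76.5%. The lowest of the 7 windows in Fbxl10 T/T, upstream of the first start, has an interval of 54.5 to 66.5 that lies below that of the window at 62993001, 70.5 to 77.8.

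Beyond the intervals little could be measured. Within 20 kb of the 4 loci a single window passed the filters, at 62980001 near Skor1, and it had 0% in WT (256 reads) and in Fbxl10 T/T (193 reads). The Fbxl10 T/T library was the shallower of the pair, and its share of reads at the loci was 0.675 to 0.844 of that in WT. The part of coverage in these differences was not tested. At the CpGs of the loci with at least 5 reads of the opposite strand, fewer than 90% of those reads showed G at 1 of 458 CpGs in WT and 1 of 424 in Fbxl10 T/T, so few CpGs carried the sign of a C-to-T variant. Of reads at cytosines not followed by G, 0.393% showed C for WT at the loci and 0.453% for Fbxl10 T/T.

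The Polycomb mutants could be read at fewer windows because their libraries were shallow, with a median of 2 to 3 reads per CpG outside CCGG, against 37 in WT and 25 in Fbxl10 T/T. At the windows that could be measured, no gain over summed reads in them was as large as those called in Fbxl10 T/T. In Ring1B -/- 0 of 11 windows of the loci were called higher, where 1.33% of 8723 windows of the genome were. In Eed -/- 0 of 11 were called, with 0.372% of 9146 over the genome, and in Ezh2 -/- 0 of 12, with 0.269% of 8552. At these shares a count of 0 among 11 or 12 windows is near the background. At an unadjusted p under 0.05 the Fisher's exact tests gave 2 windows in Ring1B -/-, 0 in Eed -/- and 3 in Ezh2 -/-. After adjustment they gave 1, 0 and 1. The share of all windows under either cut was not counted, so nothing about the loci is read from these counts. No Otx2 window could be measured in any of these mutants.

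At Hmx2/Hmx3 the levels in the Polycomb mutants stayed near WT. The 7 windows that were called in Fbxl10 T/T, where they had 66.8%, had 2.65% in WT. Ring1B -/- had 2.92% there (1.54 to 5.46), Eed -/- 2.24% (1.09 to 4.54) and Ezh2 -/- 3.63% (1.92 to 6.75). The Hmx3 start window held 1 methylated read out of 72 for Ring1B -/-, 1 of 84 for Eed -/- and 2 of 90 for Ezh2 -/-. The window of the Hmx2 start had 0% in Ring1B -/- and Ezh2 -/-, with 76 reads each and upper limits of 4.81%, and 3.33% of 90 reads in Eed -/-. The upper bounds of the 15 differences from WT at the locus reach at most 16.3 points, in Ezh2 -/-, so a gain of 20 points or more lies outside every one of these intervals.

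At Uncx the levels over summed reads were also near WT, while Otx2 was read at few positions. The 10 called windows of Uncx had 7.68% in WT and 60.6% in Fbxl10 T/T. Ring1B -/- had 7.20% there (4.60 to 11.1), Eed -/- 6.21% (4.01 to 9.49) and Ezh2 -/- 8.01% (5.49 to 11.6). Singly, only 2 Uncx windows were measured in Ring1B -/- and 3 each in Eed -/- and Ezh2 -/-. The start window had 5 reads in Ring1B -/- and 3 in Ezh2 -/-, and was not read in Eed -/-. The thinly read window at 140028001 had 100% of 10 reads in Ring1B -/- (72.2 to 100), against 27.4% in WT. It had 36.4% of 11 reads in Eed -/- and 16.7% of 12 in Ezh2 -/-. The 5 windows of Otx2 had 4.19% in WT (3.27 to 5.35) and 77.0% in Fbxl10 T/T. The 3 other mutants had 38, 39 and 19 reads there, with 0% in Ring1B -/- (upper limit 9.18%), 12.8% in Eed -/- (5.60 to 26.7) and 5.26% in Ezh2 -/- (0.935 to 24.6). The Eed -/- interval lies just above that of WT, and the other 2 intervals hold the WT level. Over all Otx2 CpGs read in both libraries Eed -/- differed from WT by 3.62 points, with an interval of -3.07 to 15.0. All 3 upper limits lie below the level in Fbxl10 T/T.

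Skor1 was the locus where Ring1B -/- and Ezh2 -/- stood above WT. Over its 7 called windows the level was 4.54% in WT (4.09 to 5.04), 12.1% in Ring1B -/- (8.43 to 17.2), 9.77% in Ezh2 -/- (6.76 to 13.9) and 3.46% in Eed -/- (1.77 to 6.68). In Ring1B -/- the window at 62990001 had 15.1% (53 reads) against 2.82% in WT, a difference of 12.3 points (4.98 to 24.3, Fisher's exact test, Benjamini-Hochberg adjusted p = 0.00318). The neighbouring window at 62992001 had 19.4% against 5.93% (31 reads, Fisher's exact test, adjusted p = 0.0664). In Ezh2 -/- that window had 23.5% (34 reads over 8 CpGs), a difference of 17.6 points (6.42 to 34.1, Fisher's exact test, adjusted p = 0.0177), and the window at 62990001 had 8.97% (78 reads, the same exact test, adjusted p = 0.0889). In Eed -/- the window at 62990001 equalled WT at 2.82%. Over summed reads all of these differences were smaller than 20 points, and the levels lay below the 66.7% and 70.6% of Fbxl10 T/T. As a plain mean over its 8 CpGs, however, the Ezh2 -/- window at 62992001 had 46.1% against 6.98% in WT, a difference of 39.1 points, and was then called higher. Whether the rise at Skor1 differs between the mutants, or from that at other loci, was not tested.

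The Skor1 difference was also taken over the whole locus. Over its CpGs read in both libraries the difference was 6.09 points (2.39 to 11) in Ring1B -/- and 7.40 points (3.82 to 11.8) in Ezh2 -/-. It was 4.48 and 4.76 points when WT was weighted by the reads of the mutant at each CpG. Within 500 bases of the first Skor1 start the levels were 5.08% of 59 reads for Ring1B -/- (1.74 to 13.9) and 1.94% of 103 reads for Ezh2 -/- (0.534 to 6.81), where WT had 3.52%. Cytosines not followed by G at the loci showed C more often in these libraries. The shares were 1.95% for Ring1B -/-, 2.62% for Eed -/- and 2.24% for Ezh2 -/-, where WT had 0.393%, and their part in the Skor1 difference was not tested.

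**Figure D3:**
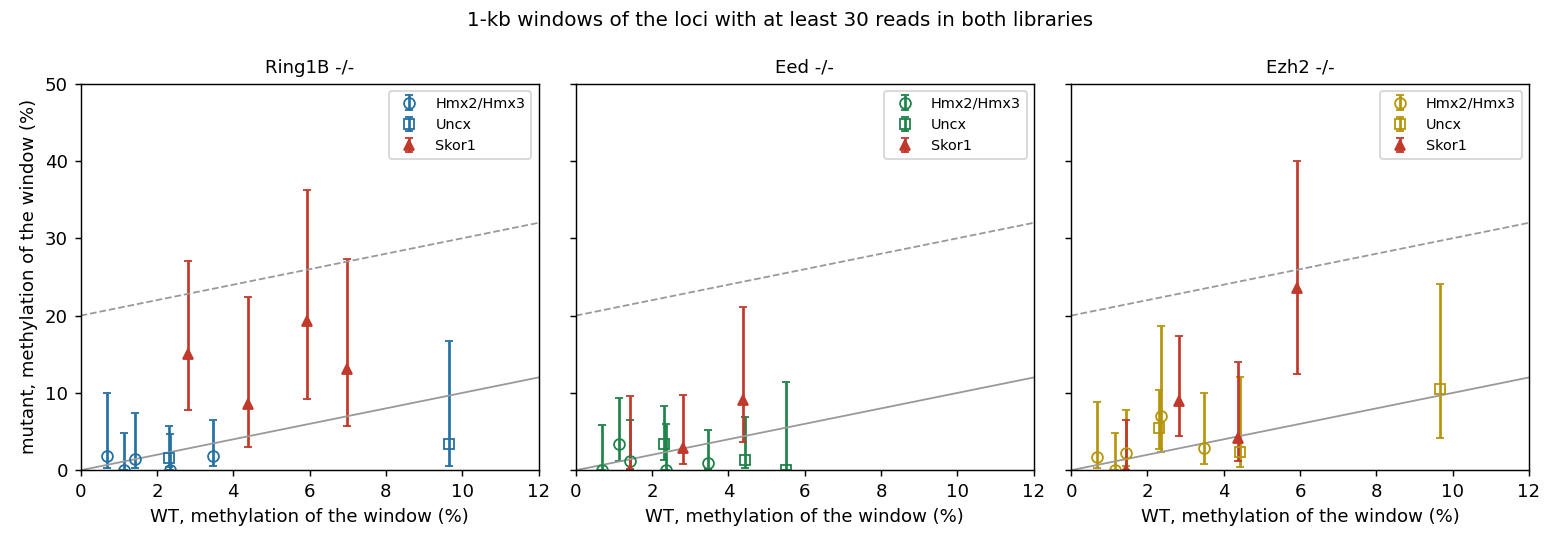
Methylation of each measured 1-kb window in the mutant (y axis, percent, 95% Wilson intervals) against WT (x axis, percent) for Ring1B -/-, Eed -/- and Ezh2 -/-. The solid line marks equal levels and the dashed line a rise of 20 points, and no point reaches the dashed line. Skor1 windows are filled red triangles, and the highest of them is at 19.4% in Ring1B -/- and at 23.5% in Ezh2 -/-.

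**Figure D4:**
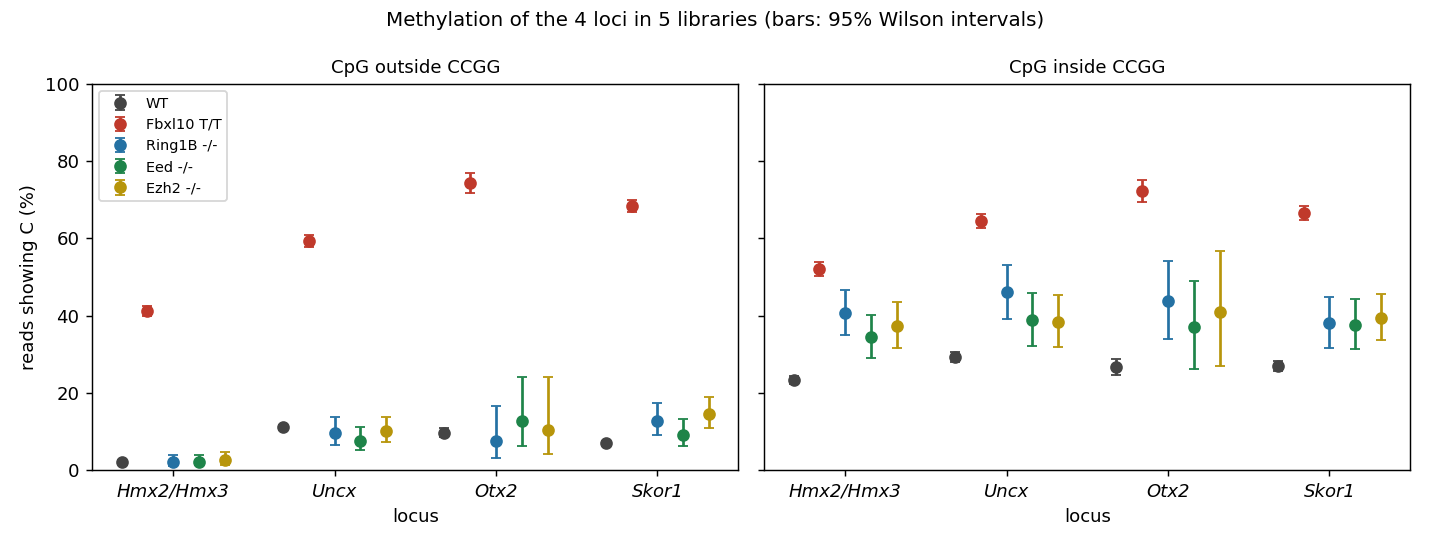
Reads showing C (y axis, percent) over each locus (x axis) in the 5 libraries, for CpGs outside CCGG (left) and inside it (right), with 95% Wilson intervals. On the left only Fbxl10 T/T is high, from 41.2% to 74.4%, and on the right every mutant lies above WT.

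Other regulators of neural development were read at their promoters, within 500 bases of a placed start. A list of 51 such genes without the 5 described above was used, of which 36 are in the sequence table, 25 were placed and 22 were measured. Of these 22 promoters 19 were higher by at least 20 points in Fbxl10 T/T and 0 lower, beside 15.4% of the 8102 promoters measured in all. The median of the 22 was 2.48% in WT and 57.9% in Fbxl10 T/T, and the median difference was 53.4 points, against 0.0638 points over all promoters. By the same measure the promoters of Otx2, Uncx, Hmx3 and Skor1 went from 5.65% to 80.2%, from 6.31% to 75.8%, from 1.43% to 70.7% and from 3.52% to 64.9%. The promoter of Hmx2 went from 1.52% to 7.43% (6.03 to 9.13). The list was drawn up with results of these data known, and its count supports nothing beyond these genes.

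The largest differences were those of Tlx3 (0.870% to 74.6%), a homeobox gene of sensory and spinal neurons, and of Emx1 (5.26% to 78.7%), a homeobox gene of the cerebral cortex. Hmx1, a relative of Hmx2 and Hmx3, went from 2.24% to 69.3%, Gsx1 from 1.29% to 65.8% and Phox2a from 1.51% to 65.8%. At the other end Dlx1, a homeobox gene of forebrain interneurons, had 1.0% and 2.64%, Gbx2 had 1.83% and 11%, and Dlx2 had 1.94% and 18.8%. Irx3 went from 0.963% to 28.0% and Dbx1 from 10.1% to 46.9%. Hmx2, at 7.43% in Fbxl10 T/T, thus lies between Dlx1 and Gbx2 in level and far below Hmx1 and Hmx3. Of 20 genes used in every cell type, 11 were measured, and all 11 were within 5 points of WT. Their median level was 0.438% for WT and 0.271% for Fbxl10 T/T. Of all 8102 promoters measured, 6380 were within 5 points, so most promoters stayed as close.

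In the other mutants the measured neural promoters had medians of 3.65% in Ring1B -/-, 4.86% in Eed -/- and 3.51% in Ezh2 -/-. The medians in WT at the same promoters were 2.29%, 2.09% and 2.29%. Of 14 measured in each, 0 were higher by 20 points in Ring1B -/- and 0 in Eed -/-, and the largest differences were 9.02 and 18.1 points. In Ezh2 -/- 1 was, Neurog1, a proneural gene, at 27.7% of 47 reads against 4.87% in WT, and it is named because of its value. The share over all promoters was not counted in these mutants, so nothing about neural promoters as a group is read from these counts.

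**Figure D5:**
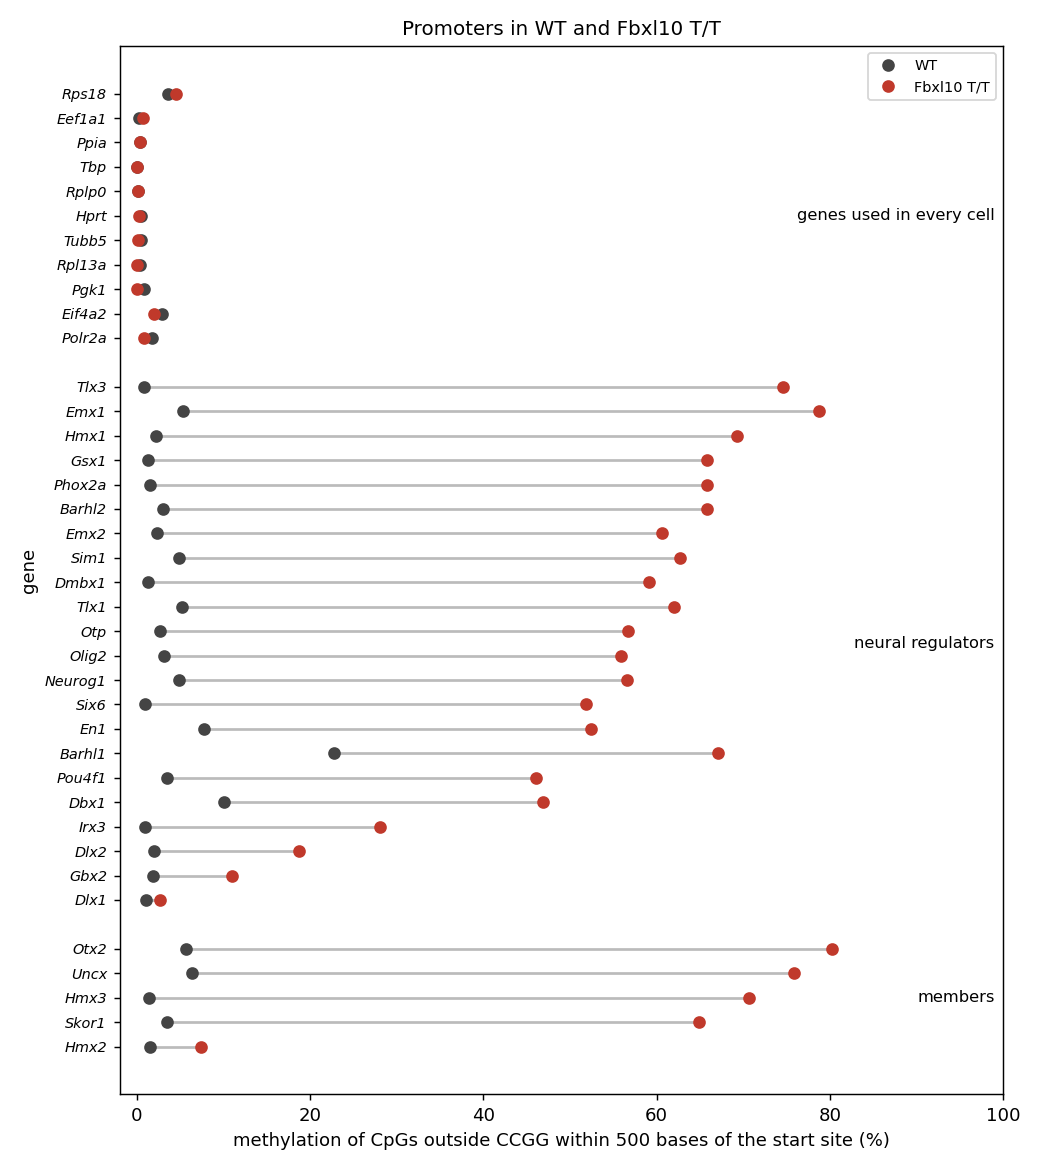
Methylation of CpGs outside CCGG within 500 bases of the start site (x axis, percent) in WT (grey) and Fbxl10 T/T (red) for the measured promoters of each list, 1 gene per line (y axis), with a line joining both values. Among the 5 genes described here (bottom) Hmx2 moves from 1.52% to 7.43% and the other 4 reach 64.9% or more, and the genes used in every cell type stay below 5%.

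The windows elsewhere in the genome with the most similar levels over the 5 libraries were found by Euclidean distance to the summed called windows of each locus, among 6994 windows measured in all 5 libraries. This is a description over 5 libraries. For Hmx2/Hmx3 they were a window on chromosome 1 at 180206001 (distance 1.74 points), one on chromosome 7 at 88358001 with a start of Pde8a (1.80) and one on chromosome 9 at 99258001 with a start of Esyt3 (1.97). For Uncx they were a window with a start of Tlx1 on chromosome 19 at 45225001 (2.69), one with a start of Trim47 on chromosome 11 at 115971001 (3.13) and one on chromosome 2 at 130867001 (3.58). For Otx2 they were a window with a start of Zfp783 on chromosome 6 at 47893001 (4.52), another on chromosome 6 at 113342001 (5.27) and one with a start of Icosl on chromosome 10 at 77532001 (5.85). For Skor1 the closest, on chromosome 4 at 124336001 (3.02), had 70.2% in Fbxl10 T/T and 12.7% in Ring1B -/-. The next were a window with a start of Pthlh on chromosome 6 at 147212001 (5.18) and one on chromosome 11 at 53292001 (5.30). Of these 12 windows only that of Tlx1 holds a placed start of a gene on the neural list.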

How the data were processed

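RRBS tables of 5 ES cell libraries, 1 per genotype label, were used. Per the submitters' processing notes, BSMAP 2.74 and build mm9 were used, and trimming and duplicate removal are not given in the sources used here. Per the file headers, the deposited counts are raw reads per cytosine that show C, that show C or T, and that lie on the opposite strand. The authors' expected counts are reads showing C or T scaled for variants seen on the opposite strand, per the file headers, and were used only as an alternative denominator. The deposited fraction is the C count over these expected counts, per the file headers, and was only checked. CpGs are listed on the + strand only.

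Reads showing C and reads showing C or T were summed over CpGs outside CCGG, because ends of MspI fragments can carry unmethylated or filled-in bases, in 1000-base windows of the 19 autosomes and X with at least 5 CpGs and 30 reads in both libraries. Reads at neighbouring CpGs are not independent, so 95% Wilson and Newcombe intervals cover counting error only and Fisher's exact test (two-sided, Benjamini-Hochberg over all windows) compares the reads of 2 libraries. All comparisons share the WT library. WT had 25424859 reads outside CCGG, Fbxl10 T/T 15850683, Ring1B -/- 1051100, Eed -/- 1106253 and Ezh2 -/- 989848.

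Of 32619 promoter sequences, 10822 were placed in mm9 by at least 30 matching letters with at most 2% mismatches, at 1 position each. No coordinates were converted between builds. The members and lists were chosen with earlier results of these data known. Named are the 5 genes, every measured window at their loci, the 3 windows most alike per locus and the 5 neural regulators with the largest and the 5 with the smallest difference. The window test was tested on simulated data. Alternatives changed the CpGs kept, the minimum numbers, the weighting, the denominator, the threshold, the window borders and the centring. Python 3.11.15, numpy 2.4.6, pandas 2.3.3, scipy 1.17.1, numba 0.67.0 and matplotlib 3.10.9 were used.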

Additional observations from a re-analysis of the deposited data

Results flagged for a closer look

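CpGs inside CCGG, the MspI site, were kept out of the comparisons above, and at the 4 loci they showed C in more reads in every mutant than in WT. The level was 26.4% in WT, 61.8% in Fbxl10 T/T (95% Wilson interval 60.8 to 62.7), 41.6% in Ring1B -/- (38.2 to 45.2), 36.7% in Eed -/- and 38.6% in Ezh2 -/-. Over the whole tables these CpGs stood at 46.3% in WT and between 47.5% and 50.7% in the mutants, so the gap between the Polycomb mutants and WT was wider at the loci than over the table. The levels at the loci rest on 304 CpGs in WT but on 188 in Ring1B -/-, 183 in Eed -/- and 179 in Ezh2 -/-. Levels over CpGs inside CCGG read in both libraries were not compared, so the part of differing CpGs in this gap was not tested.

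Cytosines not followed by G, also outside the main measurement, showed C in 0.393% of reads at the 4 loci in WT, in 1.95% in Ring1B -/-, in 2.62% in Eed -/- and in 2.24% in Ezh2 -/-. Over the whole tables the shares were 1.02% in WT and 2.62%, 2.83% and 2.10% in these mutants. The number of such reads at the loci was 93821 in WT and 3856 in Ring1B -/-.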

How the results depend on the processing

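In Fbxl10 T/T the count of windows called higher at the loci, 29 of 35, lay between 25 and 33 over the 12 alternatives. No called window changed direction. The uncalled window after the Hmx2 start went from 1.30 to -21.9 points as a mean over CpGs, still uncalled. At a threshold of 30 points 2 Uncx windows, at 29.1 and -27.2 points, were no longer called. In Ring1B -/- the count of 0 became 2 with CpGs inside CCGG kept, 1 at a threshold of 10 points and 1 with windows shifted by 500 bases. In Ezh2 -/- it became 2 with CpGs inside CCGG kept, 1 with levels as the mean over CpGs and 1 at 10 points. The last 2 are the Skor1 window at 62992001, which differed by 39.1 points as a mean over 8 CpGs and by 17.6 points over reads. The cause of these moves was not tested. As a mean over CpGs, the difference at the Uncx start window was 28.5 points instead of 70.7 and that at the Hmx2 start window 17.4 instead of 6.44. In Eed -/- the count stayed at 0 in all 12. Over the genome, keeping CpGs inside CCGG gave 482 higher windows of 13055 in Ring1B -/-, 214 of 13457 in Eed -/- and 194 of 12717 in Ezh2 -/-. By the main rule they were 116 of 8723, 34 of 9146 and 23 of 8552. On the same windows a threshold of 10 points gave 343, 233 and 151, and a threshold of 30 points 68, 8 and 5. At least 60 reads gave 36 of 4786, 11 of 5032 and 3 of 4338. At least 10 reads per CpG gave 9 of 1073, 11 of 1221 and 1 of 744. For Eed -/- that is 0.901%, a higher share than the main 0.372% though a lower count. At least 5 reads per CpG gave 50 of 5346, 19 of 5642 and 7 of 4971. The mean over CpGs gave 73 of 9146 in Eed -/- and 50 of 8552 in Ezh2 -/-. In Ezh2 -/- windows shifted by 500 bases gave 14 of 8561. Restriction to CpGs read in both libraries was chosen after seeing the data. No paired analysis was possible because each genotype had 1 library. Depth limits the 3 Polycomb mutants most, with 53 to 71 reads in the median measured window of the loci, and Otx2 could not be measured in them.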

Other observations

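At 12 further windows of the loci both WT and Fbxl10 T/T had at least 30 reads but too few CpGs to be measured. At Otx2 4 such windows of 2 to 4 CpGs stood at 7.97% to 28.2% in WT and at 63.6% to 81.9% in Fbxl10 T/T. The window of the Otx2 start itself, at 49284001, is one of them and went from 7.97% to 81.9%. At Uncx 2 such windows that were highly methylated in WT were lower in Fbxl10 T/T, at 140014001 (87.6% and 54.8%) and at 140033001 (67.5% and 42.9%), like the measured window at 140031001. At Skor1 the window at 62999001 had 85.3% in WT and 75.9% in Fbxl10 T/T, and that at 62985001, with 1 CpG, had 21.7% and 21.6%. These windows rest on 1 to 4 CpGs each and were chosen for mention after their values were seen.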
